A study of Mus musculus with 15 samples.

Results

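The genes described here are those of the cytosolic ribosomal proteins, the protein subunits of the ribosomes that translate nuclear messages. They were taken by symbol as every gene on the array named Rpl or Rps with a number, with Rplp0, Rplp1, Rplp2 and Rpsa, and without the Rps6k kinase genes, Rps19bp1 and pseudogenes. This gave 83 of 17178 gene symbols on the array, 32 of the small subunit and 51 of the large subunit. The large subunit genes included the 3 genes of the acidic stalk, and the whole set included 6 paralogues of a canonical subunit gene, namely Rpl3l, Rpl7l1, Rpl22l1, Rpl36al, Rpl39l and Rps27l. The genes lay on 19 chromosomes, with at most 14 on a single one, chromosome 7.

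RNA had been measured in 12 medulloblastomas and 3 normal cerebella, with 1 Cy3-labelled Agilent array per sample. The tumours came from Ptch1+/- mice of the C3B6F1 background, which carry 1 working copy of the receptor that holds the hedgehog pathway in check and develop cerebellar tumours of the SHH kind. The labels call the tumours S-type or R-type without explaining the letters. S-type tumours MB1 to MB3 arose in mice given 0 Gy (age 160 to 173, in a unit not stated) and MB4 to MB6 after 0.2 Gy (age 128 to 135), and R-type tumours MB7 to MB9 arose after 0.2 Gy (age 106 to 127) and MB10 to MB12 after 1.5 Gy (age 87 to 103), with X-rays given on postnatal day 1. The normal cerebella N1 to N3 were unirradiated (age 103 to 113), and their genotype and strain are not in the labels. Tumour type, dose and age therefore moved together and cannot be told apart. At 0.2 Gy both types were sampled, but their ages did not overlap there either. The labels do not state that each sample came from its own mouse, so the p-values measure only the spread between these samples.

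Ribosomal proteins are made in near-equal numbers, because each ribosome holds about the same complement of them, and their messages are among the most abundant of any cell. Most carry a terminal oligopyrimidine tract, a run of C and T that begins at the first transcribed base and through which mTOR signalling sets how well they are translated. Cells that divide, as granule neuron precursors and the SHH tumours that arise from them do, build new ribosomes, while mature neurons of the cerebellum do so at a lower rate.

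The start sites of 63 of the 83 genes were found in a RefSeq promoter table (GRCm38.p6), and 6 are shown because they carry the results below. Each stretch runs from 40 bases before the annotated start to 20 bases after it, on the strand of the gene, and capitals mark the longest run of C and T of at least 8 bases that lies between 10 bases before and 20 bases after the start. Rpl27a, the canonical gene that was lower in tumours, had the longest run of the 63, and Rpl35, Rps6 and Rps26, which were higher, had shorter ones. Rpl22l1 had a run. Its partner Rpl22, with the highest rise of all on the brightest probes, had none of that length at either of its 2 starts in the table, of which 1 is shown.
Rpl27a (chr7:109519155-109519214, plus strand): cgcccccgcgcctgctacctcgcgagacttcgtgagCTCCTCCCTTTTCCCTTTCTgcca
Rpl35 (chr2:39005112-39005171, minus strand): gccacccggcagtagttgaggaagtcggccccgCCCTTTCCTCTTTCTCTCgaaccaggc
Rps6 (chr4:86857348-86857407, minus strand): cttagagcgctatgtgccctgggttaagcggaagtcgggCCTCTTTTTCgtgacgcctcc
Rps26 (chr10:128626487-128626546, minus strand): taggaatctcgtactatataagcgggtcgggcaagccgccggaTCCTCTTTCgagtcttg
Rpl22l1 (chr3:28805468-28805527, plus strand): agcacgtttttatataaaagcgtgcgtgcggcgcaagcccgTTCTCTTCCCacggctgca
Rpl22 (chr4:152324396-152324455, plus strand): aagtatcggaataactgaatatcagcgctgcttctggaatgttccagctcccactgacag

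A run of at least 8 pyrimidines in that window was found at 24 of the 63 matched genes (38.1%) and at 13.0% of the 27025 genes of the whole table. CACGTG, the E-box bound by MYC, which reads the same on both strands, lay within the 250 bases before and 50 after the start of 6 of the 63 genes (9.52%) against 8.09% of all genes. TATAAA on the strand of the gene lay in the same window of 6 (9.52%) against 9.77%. The 24 genes with a pyrimidine run had a median log2 change of 1.44 between tumours and normal cerebella, and the 38 tested genes without it had 1.53. An annotated start can lie some bases from the true one, so a missing run says only that these letters were not in this window.

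Signal was read as log2 of the processed spot intensity less the 75th percentile of its array, so that a value of 0 is the level of that percentile and a difference of 1 is a doubling. Between 59.1% and 66.5% of the probes of an array were well above background, and none was saturated. The tumours carried the marker genes of their kind. The summed level of 8 markers of dividing granule precursors and SHH tumours, among them Atoh1 and Gli1, was 177.5 to 257.7 times the percentile signal in tumours against 1.80 to 2.04 in normal cerebella, and all 8 were higher by the test. Markers of cells of the mature cerebellum were lower in tumours. The 8 markers of granule neurons summed to 26.6 to 42.9 against 241.5 to 266.6 (8 of 8 lower), the 7 of Purkinje cells to 4.38 to 8.88 against 283.4 to 298.4 (7 of 7), the 7 of astrocytes to 14.0 to 41.0 against 241.2 to 266.9 (6 of 7) and the 7 of oligodendrocytes to 8.24 to 12.3 against 61.7 to 96.7 (6 of 7). The 7 microglial markers summed to 21.4 to 39.3 in tumours and 3.67 to 4.86 in normal cerebella, with 7 of 7 higher. Of the other marker lists, those of red blood cells were lower (3 of 3 tested), with sums of 1.22 to 9.79 against 20.5 to 42.1, and those of endothelium, lymphocytes, choroid plexus and meningeal fibroblasts had 3, 1, 1 and 3 genes higher and 2, 2, 1 and 0 lower. The part of these cell types in the ribosomal protein results was not tested, and in whole tissue more cells of a type and more RNA per cell cannot be told apart.

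Nearly every ribosomal protein gene was higher in medulloblastoma than in normal cerebellum. Of the 82 genes tested, 80 rose and 2 fell (limma with Benjamini-Hochberg adjustment over all 21661 tested genes, adjusted p below 0.05). Of these 21661, 13428 had a gene symbol and the others only a transcript name from the array. Among all tested genes 43.5% rose and 35.4% fell. The median change of the 82 genes was 1.49 on the log2 scale, or 2.80-fold, where the median of all tested genes was 0.14. In 70 of the 82 the rise was at least 2-fold, and in 79 every tumour lay above every normal cerebellum, an arrangement found in 36.4% of all tested genes. Read on the brightest probe of each gene, all 32 genes of the small subunit rose, with a median of 1.49, and 48 of 50 of the large subunit, with a median of 1.43.

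**Figure D1:**
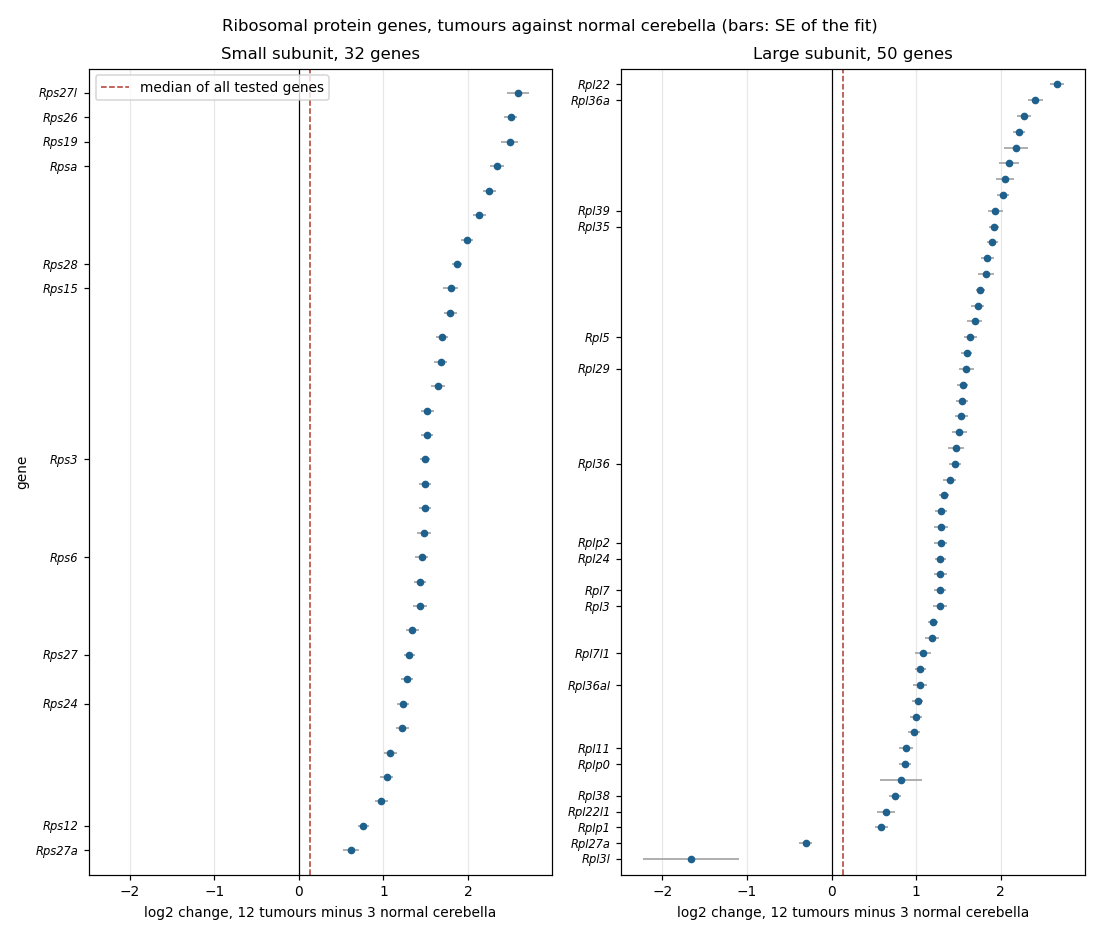
Log2 change between 12 tumours and 3 normal cerebella for each tested ribosomal protein gene, small subunit on the left and large subunit on the right, with the standard error of the fit as bars the median of all tested genes (0.14) as a dashed line and names beside most of the genes described in the text. All genes but Rpl27a and Rpl3l lie to the right of 0, from 0.59 for Rplp1 to 2.66 for Rpl22.

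On the brightest probe of each gene the largest rise was that of Rpl22, an RNA-binding protein of the large subunit. The normal cerebella had log2 signals of 3.18, 3.23 and 3.23 and the tumours 5.42 to 6.18 (median 5.89), a change of 2.66 ± 0.09 (SE; 6.33-fold, adjusted p = 5.07e-11). Tumours and normal cerebella did not overlap. A second, dimmer Rpl22 probe rose by 1.30, so the direction was shared by both probes and the size was not.

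Among small subunit genes, Rps27l, a paralogue of Rps27 known as a p53 target, was at 2.40, 2.48 and 2.50 in normal cerebella and at 4.53 to 5.37 in tumours, a change of 2.59 ± 0.13 (SE). Rps26, whose protein sits at the exit of the message from the ribosome, went from 3.08, 3.14 and 3.13 to between 5.33 and 5.84, with a change of 2.51 ± 0.08. Rps19, mutated in Diamond-Blackfan anaemia and needed to mature the small subunit, was at 0.65, 0.52 and 0.67 and rose to between 2.68 and 3.64, by 2.49 ± 0.11. The values of the 3 genes did not overlap between tumours and normal cerebella, and their adjusted p-values were 2.15e-09, 3.08e-11 and 5.36e-10. Rpsa, the subunit also known as the laminin receptor, rose by 2.34 ± 0.08 (SE) on its brightest probe and by 1.63 on another. Rpl36a, an X-linked large subunit gene, had 3.71, 3.82 and 3.79 in normal cerebella and 5.76 to 6.57 in tumours, a change of 2.41 ± 0.09 (SE), and the lowest of its other probes gave 1.41.

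Some subunits are also known for roles in signalling or outside the ribosome. Rps6, the subunit that S6 kinases phosphorylate downstream of mTOR, had log2 signals of 4.08, 4.12 and 4.17 in normal cerebella and 5.27 to 5.89 in tumours and rose by 1.45 ± 0.08 (SE, adjusted p = 5.50e-09). Rps3, which lines the channel where the message enters, rose by 1.49 ± 0.06 (SE). Rpl5 and Rpl11 form with a ribosomal RNA the complex that binds MDM2 and so stabilises p53 when assembly fails. They differed in size, with 1.64 ± 0.07 for Rpl5 and 0.88 ± 0.08 (SE) for Rpl11, and both were higher in 12 of 12 tumours than in any normal cerebellum. Under cyclic loess the change of Rpl11 was 0.06 and did not pass (adjusted p = 0.466).

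The stalk proteins recruit the translation factors to the large subunit. Rplp2 rose by 1.29 ± 0.08 (SE), Rplp0 by 0.87 ± 0.07 and Rplp1 by 0.59 ± 0.08, with adjusted p-values of 1.50e-08, 2.60e-07 and 2.36e-05. The smallest of these depended on the scaling: under cyclic loess Rplp1 was lower in tumours, at -0.32 (adjusted p = 0.00185), and under quantile normalization its change was 0.09 and did not pass. Rplp0 did not pass under cyclic loess (0.02), and it had a second probe with a change of 2.75, so its size depended on the probe.

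Beside Rplp1 and Rpl22l1, the smallest rises without overlap were those of Rps27a, Rpl38 and Rps12. Rps27a, made as a fusion with ubiquitin, had log2 signals of 4.99, 5.15 and 5.22 in normal cerebella and 5.45 to 5.96 in tumours, a rise of 0.61 ± 0.10 (SE, adjusted p = 7.21e-05). Rpl38, which in mouse embryos is needed to translate a set of Hox messages, went from 6.11, 6.20 and 6.25 to between 6.74 and 7.24, by 0.75 ± 0.07 (SE). Rps12 went from 6.06, 6.11 and 6.20 to between 6.65 and 7.18, by 0.76 ± 0.07 (SE). Under cyclic loess the changes of the 3 genes were -0.07, -0.08 and -0.06 and did not pass, and under quantile normalization Rpl38 did not pass either.

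Rpl27a was the only canonical subunit gene that was lower. Its log2 signal was 3.87, 3.80 and 4.02 in normal cerebella and 3.39 to 3.80 in tumours (median 3.58), a fall of 0.31 on the log2 scale (SE 0.08, adjusted p = 0.00311). MB11 reached the level of N2 to 2 decimals, and the other tumours lay below it. Rpl3l, the paralogue of Rpl3 known from muscle, was well above background on only 4 of the 15 arrays (N2, N3, MB1 and MB5), and its call (adjusted p = 0.0178) was lost without N2 or without N3, with adjusted p-values of up to 0.0672. Its size is not given, since most of its tumour values were below background. Rpl39l, known from testis, was well above background only in MB5 and MB11 and was not tested.

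The paralogues well above background on all arrays rose with their partners. Rpl22l1 had log2 signals of 4.28, 4.36 and 4.50 in normal cerebella and 4.59 to 5.32 in tumours (median 5.04) and rose by 0.64 ± 0.11 (SE, adjusted p = 0.00014), a call lost under cyclic loess (0.03, adjusted p = 0.757). Rpl36al went from 2.77, 2.82 and 2.92 to between 3.52 and 4.14, by 1.04 ± 0.09 (SE). Rpl7l1, whose protein takes part in ribosome assembly, went from 0.78, 0.97 and 1.08 to between 1.71 and 2.37, by 1.08 ± 0.10 (SE). None of these 3 overlapped between tumours and normal cerebella. Their partners also rose, Rpl7 by 1.28 ± 0.08 (SE) and Rps27 by 1.31 ± 0.07, and so did the partners of the paralogues near background, Rpl3 by 1.28 ± 0.08 and Rpl39 by 1.94 ± 0.09.

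Some paralogues and partners rose by different amounts on the probes used. The log2 ratio of the 2 genes within each array does not depend on a shift of the whole array. The ratio of Rpl22 to Rpl22l1 was -1.17 ± 0.09 (SD, n = 3) in normal cerebella and 0.85 ± 0.29 (n = 12) in tumours. The ratio of Rps27 to Rps27l went the other way, from 3.43 ± 0.04 (SD, n = 3) to 2.15 ± 0.19 (n = 12). For Rpl36a over Rpl36al, its autosomal copy, the ratio was 0.94 ± 0.06 (SD, n = 3) and 2.30 ± 0.13 (n = 12). In these 3 pairs the ratios of tumours and normal cerebella did not overlap (adjusted p = 0.00879 for each in two-sided exact permutation tests over 8 comparisons of ratios; the unadjusted 0.0044 is the smallest that 3 against 12 samples can give). The ratio of Rpl7 to Rpl7l1 was 4.46 ± 0.11 and 4.66 ± 0.14 (SD), a difference that did not pass (adjusted p = 0.0844, exact permutation test). A ratio compares changes and not levels, because each gene was read by its own probe, and with the second Rpl22 probe, which rose by 1.30 against 0.64 for Rpl22l1, that pair would differ by less. The same holds for Rpl36a, whose lowest probe rose by 1.41 against 1.04 for Rpl36al. The other Rpl7 probes rose by 1.67 to 1.76, more than the one used. The scanner reads bright spots at low gain and scales them up. Rpl22, Rps27l and Rpl36al were read so in 10 or more tumours and in no normal cerebellum. Rpl22l1 and Rpl36a were read so on all 15 arrays. The part of this switch in the ratios was not tested.

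**Figure D2:**
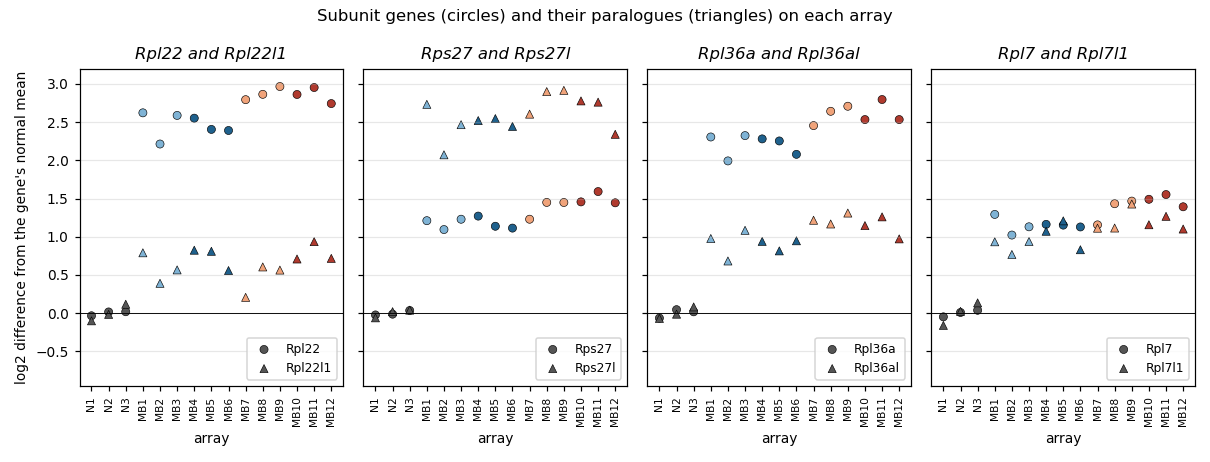
Log2 difference from the mean of the 3 normal cerebella on each array, for a subunit gene (circles) and its paralogue (triangles), coloured by group as grey for normal, light and dark blue for S-type at 0 and 0.2 Gy, and orange and red for R-type at 0.2 and 1.5 Gy. Rpl22 and Rpl36a lie above their paralogues in every tumour, Rps27 lies below Rps27l in every tumour, and the points of Rpl7 and Rpl7l1 lie close together.

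Each tumour group was higher than normal cerebellum on its own. The median change of the 82 genes was 1.32 for S-type at 0 Gy (79 genes higher, against 41.2% of all tested genes), 1.35 for S-type at 0.2 Gy (80 higher, against 40.9%), 1.60 for R-type at 0.2 Gy (80 higher, against 40.9%) and 1.65 for R-type at 1.5 Gy (80 higher, against 41.2%). These 4 comparisons share the normal cerebella. Rpl22 rose by 2.47, 2.45, 2.87 and 2.85 in the same order, and Rps6 by 1.30, 1.29, 1.57 and 1.63. Within slides that held normal cerebella and tumours together, the median of the 82 genes was 1.39, 1.60 and 1.46, with 80 of 82 positive on each of the 3 slides. Each of these slides held 3 tumours and 1 normal cerebellum.

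Most of the 82 genes rose under each scaling between arrays, but the size of the rise and the calls of some genes depended on the scaling. The count of genes higher was 80 with no scaling, 78 with quantile normalization and 69 with cyclic loess, against 37.4%, 43.6% and 38.6% of all tested genes. The median of the 82 genes was 1.31, 1.10 and 0.76. The median of all tested genes was -0.04 with no scaling and -0.02 with cyclic loess, and the share of genes higher among all that were called went from 55.1% to 48.7% and 48.8%. Under cyclic loess 3 genes were lower, Rpl27a, Rplp1 and Rpl3l, and 10 did not pass. The scanner reads the brightest spots at low gain and scales them up, and 62 of the 82 genes were read so on all 15 arrays. Those 62 had a median change of 1.46 (62 higher), where the 564 other genes read so on all arrays had 0.35. Another 11 genes, Rpl22, Rpsa, Rps26 and Rps27l among them, were read at low gain in 10 or more tumours and in no normal cerebellum. Their median was 1.90, beside 1.70 for the 362 other genes that switched gain in the same way. A gene read at low gain only in tumours has to be brighter there, so this choice fixes the direction of both medians, and the part of the switch in their size was not tested. The 6 genes never read at low gain, Rps19 among them, had a median of 1.56 with 5 higher and 1 lower.

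Of the 30 genes with several probes, 29 had several that were tested. Their probes gave changes within 0.5 log2 units of each other in all but 7 genes, with a median gap of 0.31. Rps15a alone had opposite calls, with 2.13 on the brighter probe and -1.30 on the other, so its place among the genes that rose rests on the brighter probe. Many subunit genes have near-identical processed copies in the genome, so a probe may also read RNA from these.

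At the 75th percentile scaling R-type tumours had slightly higher levels than S-type tumours, and the number of genes that passed depended on this scaling, with 26 higher under quantile normalization, 32 under cyclic loess and 2 higher and 2 lower with no scaling. At the 75th percentile, of the 82 genes, 69 were higher in R-type and none was lower at an adjusted p below 0.05 (limma), against 10.9% of all tested genes that were higher and 10.1% that were lower. The 13 that did not pass included 3 with a change below 0, Rpl21, Rpl22l1 and Rpl3l, and 76 of the 82 had an unadjusted p below 0.05. The median change was 0.29 on the log2 scale, or 1.22-fold, against 0.02 for all tested genes, and the called genes ranged from 0.19 to 0.48. In 42 of the 82 every R-type tumour lay above every S-type tumour, against 4.96% of all tested genes. Of the small subunit 29 of 32 genes were higher, and of the large subunit 40 of 50.

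Rps15, a small subunit protein close to the decoding site, had the largest called difference between the types. Its log2 signal was 3.67 to 3.99 in S-type tumours (median 3.86) and 4.19 to 4.59 in R-type tumours (median 4.31), a change of 0.48 ± 0.08 (SE, 1.39-fold, adjusted p = 0.00165). Rps19 went from 2.68 to 3.00 in S-type to 3.12 to 3.64 in R-type, by 0.43 ± 0.09 (SE), and Rpl36a from 5.76 to 6.10 to 6.23 to 6.57, by 0.41 ± 0.08. For Rpl22 the 6 S-type tumours lay between 5.42 and 5.83 and the 6 R-type tumours between 5.95 and 6.18, a change of 0.40 ± 0.08 (SE), though its second probe gave 0.06. Rpl29, a small basic protein of the large subunit, rose by 0.39 ± 0.08 (SE). The types did not overlap in any of these 5 genes on the probe used.

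Rps6 was higher in R-type by 0.31 ± 0.07 (SE, adjusted p = 0.0123), Rpl5 by 0.35 ± 0.07 and Rps3 by 0.27 ± 0.05, again with no overlap between the types. With quantile normalization the difference of Rps3 was 0.02 (adjusted p = 0.812), and its call was lost with cyclic loess and no scaling too. The Rpl5 call was lost with normexp and quantile normalization and with no scaling. Rpl11 was higher by 0.26 ± 0.07 (adjusted p = 0.0308), with 5 of 6 R-type tumours above the highest S-type tumour. The Rpl11 call was lost without MB2, MB5, MB6, MB8, MB9, MB10 or MB11, with adjusted p-values of up to 0.0789, and under 6 of 12 other settings, among them quantile normalization (0.03, adjusted p = 0.67) and cyclic loess (0.11, adjusted p = 0.201). Rps26, among the largest rises in tumours, had a difference between types of only 0.22 ± 0.07 (adjusted p = 0.0372), and Rplp2 had 0.23 ± 0.07 (adjusted p = 0.0436). Both calls were lost under 8 of 12 other settings. With single arrays left out, that of Rps26 was lost for all but MB3, MB4 and MB7 (adjusted p up to 0.0815) and that of Rplp2 for all but MB1, MB3, MB7 and MB12 (up to 0.102).

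Among genes called without overlap between the types, some of the smallest differences were those of Rps28, with 0.25 ± 0.05 (SE), and of Rpl24 and Rps24, both with 0.26 ± 0.06. Rps28, a small subunit protein near the exit of the message, had log2 signals of 7.21 to 7.41 in S-type and 7.46 to 7.71 in R-type tumours. Rpl24 was at 4.18 to 4.43 in S-type and at 4.46 to 4.68 in R-type tumours, and Rps24 at 5.92 to 6.22 and 6.26 to 6.51. The calls of Rps28 and Rps24 were lost with cyclic loess, with no scaling and with both forms of quantile normalization, and that of Rpl24 with no scaling.

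The paralogue Rpl22l1 had a difference of -0.03 ± 0.10 (SE, adjusted p = 0.834) between the types, and its ratio with Rpl22 differed between them. The log2 ratio of Rpl22 to Rpl22l1 was 0.64 ± 0.14 (SD, n = 6) in S-type and 1.07 ± 0.22 (n = 6) in R-type tumours (adjusted p = 0.00879, two-sided exact permutation test over the same 8 comparisons). The ranges of 0.426 to 0.853 and 0.848 to 1.418 overlapped slightly. That difference rests on the brighter Rpl22 probe, since the second one differed between the types by 0.06, near the -0.03 of Rpl22l1. The ratio of Rps27 to Rps27l was 2.14 ± 0.19 and 2.15 ± 0.22 (SD, n = 6 each; adjusted p = 0.933, exact permutation test). The ratios of Rpl36a to Rpl36al (adjusted p = 0.0866) and of Rpl7 to Rpl7l1 (adjusted p = 0.814) did not pass the exact permutation test either.

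How many genes separated the types depended on the scaling. The signal at the 75th percentile ranged from 1184 to 1367 intensity units in R-type tumours, from 1237 to 1611 in S-type tumours and from 1518 to 1564 in normal cerebella. With no scaling 2 of the 82 genes were higher (Rpl22 and Rps15) and 2 lower (Rpl21 and Rpl22l1). Of the 21661 tested genes 577 were higher and 5805 lower there. Without scaling the median of all tested genes was itself -0.20, and that of the 82 genes 0.07. Among all genes called between the types 51.9% were higher in R-type, beside 61.7% with median scaling and 9.04% with no scaling. Counts of genes higher were 26 with quantile normalization, 24 with background correction by normexp and quantile normalization, 32 with cyclic loess and 61 with median scaling, and none was lower in these. In all these scalings and the 75th percentile 23 genes were higher, among them Rps15, Rpl22, Rps19, Rpl36a, Rpl29, Rpl35, Rps6 and Rpsa, and Rps15 and Rpl22 were so with no scaling as well. Less the median of all tested genes, the median of the 82 was 0.27 with scaling at the 75th percentile, at the median or not at all, which are equal by construction since each shifts a whole array, 0.16 with cyclic loess and 0.08 with quantile normalization. The summed levels of each of the 11 marker lists overlapped between the types. The sums for SHH tumour cells were 177.5 to 257.7 in S-type and 180.2 to 242.4 in R-type tumours, and those for microglia 26.2 to 39.3 and 21.4 to 35.9.

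**Figure D3:**
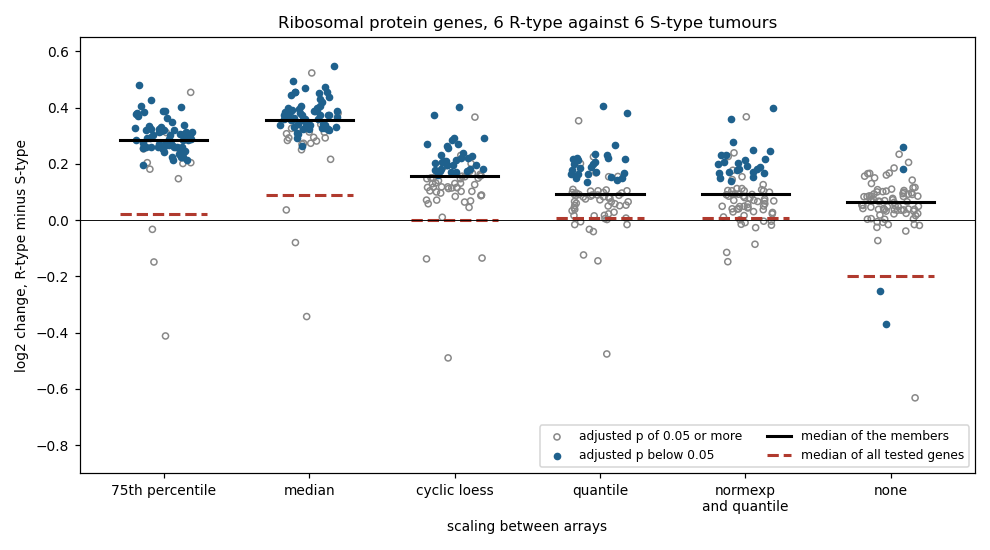
Log2 change between 6 R-type and 6 S-type tumours for each of the 82 genes under 6 ways of scaling the arrays, filled where the adjusted p was below 0.05, with the median of the 82 genes as a black line and that of all tested genes as a dashed red line. The black line lies above the dashed line under each scaling, while the number of filled points falls from 69 at the 75th percentile to 4 with no scaling.

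Array by array, the median over the 82 genes lay 1.14 to 1.42 above the normal mean in S-type tumours and 1.48 to 1.76 in R-type tumours, with MB2 the lowest and MB11 the highest. The 2 types did not overlap on this scale. With quantile normalization the ranges were 1.03 to 1.07 and 1.09 to 1.17, with cyclic loess 0.61 to 0.75 and 0.73 to 0.93, and with no scaling 1.07 to 1.36 and 1.30 to 1.38. The last 2 pairs of ranges overlapped. Within each of the 4 slides the R-type tumours had the higher median, by 0.39, 0.29, 0.12 and 0.29, with 80, 81, 76 and 79 of 82 genes positive. Each slide set 1 tumour of a type against 2 of the other. With the slide as a term in the fit 62 genes were higher, against 8.85% of all tested genes. Of the 564 other genes read at low gain on all arrays 18.4% were higher in R-type, with a median of 0.10, against 10.9% of all tested genes. Of the 62 ribosomal protein genes read so 57 were higher, with a median of 0.29. The 2 sets were not matched for brightness, and the part of brightness in the difference was not tested.

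**Figure D4:**
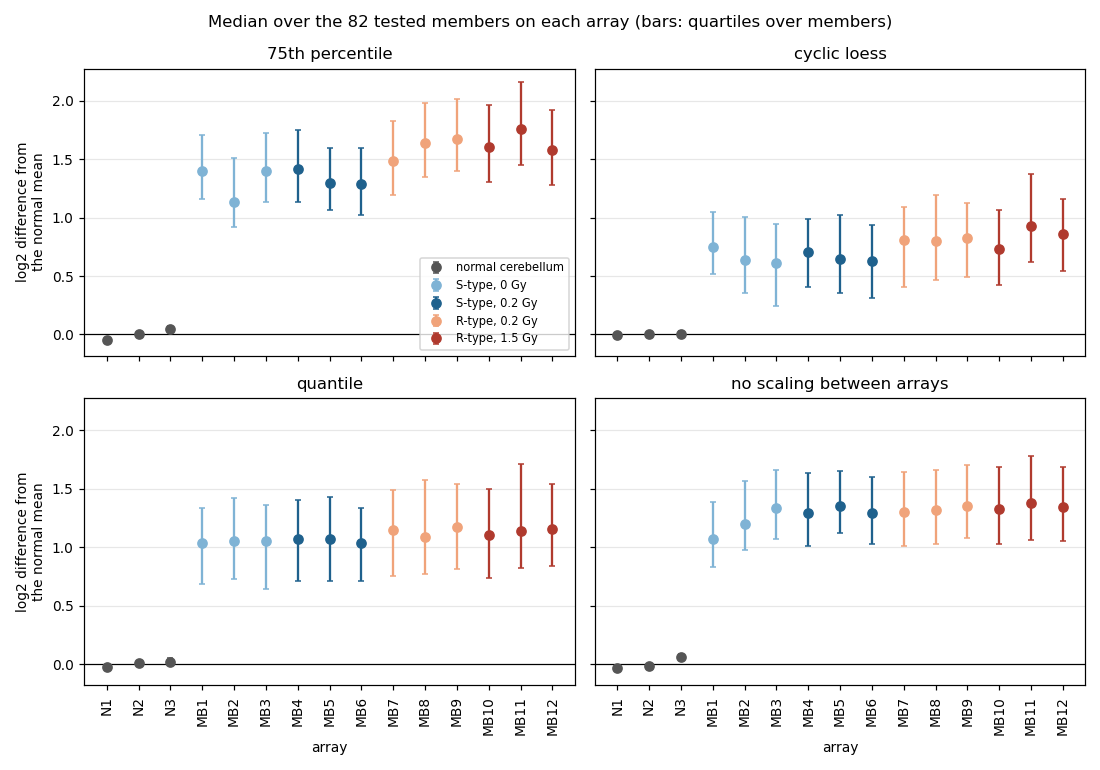
Median over the 82 genes of the log2 difference from the mean of the normal cerebella, on each of the 15 arrays under 4 ways of scaling, with bars from the lower to the upper quartile over genes and colours for the 5 groups. Tumours lie far above the normal cerebella in every panel, and R-type tumours lie above all S-type tumours at the 75th percentile and with quantile normalization.

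At 0.2 Gy, where both types had been irradiated alike, the median difference of the 82 genes between R-type and S-type was 0.25, with 79 positive. Only 4 passed, Rpl22 (0.43 ± 0.11, SE, adjusted p = 0.046), Rpl36 (0.39 ± 0.09), Rpl35 (0.35 ± 0.08) and Rpl17 (0.29 ± 0.07), against 1.99% of all tested genes that were higher, and Rpl17 was named after its values had been seen. Unadjusted p-values were below 0.05 for 62 of the 82. With quantile normalization the median difference was 0.08, with cyclic loess 0.12 and with no scaling 0.000, where 41 genes were positive and 2 were lower. Within slides 3 and 4, which held 1 tumour of each of the 2 groups, the median difference was 0.06 and 0.33. The 3 S-type tumours had log2 signals of 6.10, 5.97 and 5.99 for Rpl35 and the 3 R-type tumours 6.28, 6.39 and 6.45, without overlap. The count was unstable: it ran from 0 to 15 as single arrays were left out, with 13 of the 15 moving it by more than 1.5 times (0 without MB4 and 15 without MB2, for example), and it was 0 with the slide as a term or with only these 6 arrays in the fit. Of all tested genes 0.637% were higher without MB4 and 3.08% without MB2. The shares were 0.766% with the slide as a term and 0.757% with only these 6 arrays.

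No ribosomal protein gene passed the test between doses within a type, which with 3 arrays a group does not show that levels were alike. None of the 82 genes passed between 0.2 and 0 Gy in S-type tumours (limma; 1 at an unadjusted p below 0.05; 0.00462% of all tested genes called in either direction), and the median difference was -0.001. None passed between 1.5 and 0.2 Gy in R-type tumours either (2 at an unadjusted p below 0.05; 0.0692% of all tested genes called in either direction), with a median of 0.07 and 73 of 82 positive. Rpl22 differed by -0.03 and -0.02 in the 2 comparisons, and Rps15 by 0.09 and 0.07. These contrasts also compare ages, since the mice of each dose group differed in age.

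How alike the ribosomal protein genes varied from tumour to tumour was read from their correlations, which were not computed for sets of other genes. Over the 12 tumours the 77 tested genes that are no paralogues made 2926 pairs, with a median Pearson correlation of 0.92 in log2 signal at the 75th percentile, 0.76 with cyclic loess, 0.69 with no scaling and 0.46 with quantile normalization. With the mean of each type removed the medians were 0.78, 0.62, 0.70 and 0.20. All pairs share the same arrays and their scaling, so these values are descriptions and no tests. Rpl21 stood apart with a median correlation of -0.32 to the others. It was dim, at -1.74, -1.84 and -1.62 in normal cerebella, with medians of -0.67 in S-type and -0.81 in R-type tumours, and rose by 0.97 ± 0.07 (SE) in tumours with a difference of -0.15 ± 0.06 between types (adjusted p = 0.108). Rpl30 was next lowest, at 0.46. Its signal was 3.32 in MB1 and 3.68 in MB7, where the other 10 tumours lay between 4.07 and 4.92, and it overlapped the normal cerebella at 3.22, 3.66 and 3.90. Both genes were singled out after their values had been seen.

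Outside the set, the genes whose signal followed the mean of the ribosomal protein genes most closely over the 12 tumours were Eef1g, a subunit of the elongation factor that delivers tRNAs (r = 0.989), Gkn3 (0.988), Hnrnpl, an RNA-binding protein (0.982), Mnd1 (0.975) and Fau, which encodes the small subunit protein S30 as a fusion (0.971). Of these Eef1g, Hnrnpl, Mnd1 and Fau rose in tumours, by 1.29, 1.07, 3.97 and 1.01, and Gkn3 fell by 2.27 on the log2 scale. The r values are given at a single scaling, and all genes share the same arrays, so they are descriptions and no tests. Among the ribosomal protein genes themselves the median correlation was 0.92 at the 75th percentile and 0.46 with quantile normalization.

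Other parts of the translation machinery were read in lists chosen by function, and their counts stand beside the 43.5% of all tested genes that rose and the 35.4% that fell. Under cyclic loess 8370 of the 21661 tested genes rose and 8799 fell. Of 45 tested ribosome biogenesis genes 41 rose and 3 fell (median 1.18). Fbl, the methyltransferase of the box C/D particles, rose by 2.96 ± 0.09 (SE), Nop58 of the same particles by 2.63 ± 0.08 and Gar1 of the H/ACA particles by 2.40 ± 0.10. Those that fell were Gnl3l, Rrp1 and Sbds, by 0.73, 0.88 and 0.84. Of 13 genes of RNA polymerase I and its factors 10 rose and none fell (median 0.73), although 1 was lower under cyclic loess and with no scaling. Polr1a, the largest subunit, rose by 2.34 ± 0.17 (SE) and Polr1e by 2.13 ± 0.09.

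Among 33 initiation factors 27 rose and 3 fell (median 0.80; 20 and 9 under cyclic loess). The helicase genes went opposite ways: Eif4a1 rose by 1.97 ± 0.08 (SE) and Eif4a2 fell by 1.79 on the log2 scale. Of 13 elongation and release factors 9 rose and 3 fell (median 1.28). Eef1a1 rose by 1.94 ± 0.06 (SE), and Eef1a2, the form of mature neurons and muscle, fell by 5.99 and was named after its value had been seen. All 11 ribosome-associated and other terminal oligopyrimidine genes rose (median 1.42; 9 under cyclic loess), among them Hnrnpa1 by 2.13 ± 0.07 (SE), Btf3, the beta subunit of the nascent polypeptide complex, by 1.42 ± 0.05 and the chaperonin gene Cct2 by 1.49 ± 0.07. The 78 mitochondrial ribosomal protein genes, which serve the separate ribosomes of mitochondria, had a smaller median of 0.44, with 54 higher and 11 lower, and under cyclic loess 32 were higher and 27 lower.

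The 25 genes of mTOR and MYC control did not move as a block, with 9 higher, 11 lower and a median of -0.07. The MYC family genes rose most, Mycn by 6.30 ± 0.07 (SE), Myc by 5.97 ± 0.13 and Mycl by 5.34 ± 0.10. Mycn is also among the SHH tumour markers. Of the kinase side, named here for its role after the values had been seen, Mtor fell by 0.97, Rptor by 0.60 and Rictor by 1.11 on the log2 scale. Between the types, where 10.9% of all tested genes were higher and 10.1% lower, 1 gene of this list was higher and 2 were lower, and 11 of 45 biogenesis genes were higher and 4 lower. The corresponding counts were 3 and 1 of 13 RNA polymerase I genes, 15 and 1 of 33 initiation factors, 7 and 1 of 13 elongation and release factors, 8 and 0 of 11 ribosome-associated genes, and 17 and 1 of 78 mitochondrial ribosomal protein genes. With quantile normalization or cyclic loess 1 ribosome-associated gene was higher in R-type, beside 10 or 9 initiation factors and 3 or 4 elongation and release factors. With no scaling at most 1 gene of any of the 7 lists was higher. There 6 biogenesis, 2 RNA polymerase I, 2 initiation, 2 elongation and release, 9 mTOR and MYC and 6 mitochondrial ribosomal protein genes were lower.

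**Figure D5:**
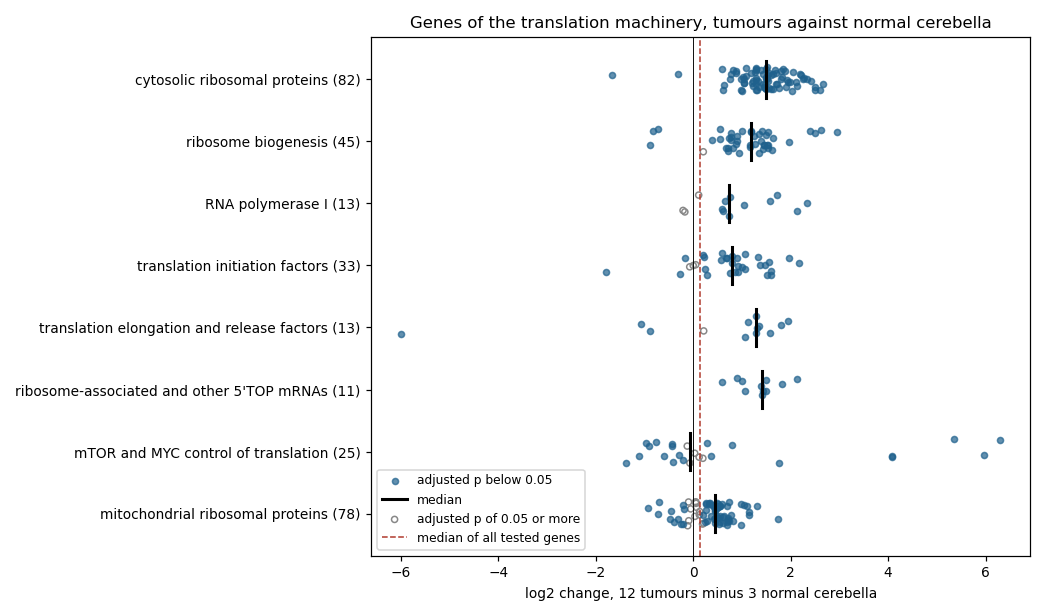
Log2 change between 12 tumours and 3 normal cerebella for each tested gene of the cytosolic ribosomal proteins and of 7 other lists of the translation machinery, filled where the adjusted p was below 0.05, with the median of each list as a black bar and that of all tested genes as a dashed line. At the scaling shown the cytosolic ribosomal proteins have the highest median, 1.49. The genes of mTOR and MYC control spread from -1.38 to 6.30 around a median of -0.07. The top rank depends on the scaling. With quantile normalization the medians are 1.095 for the ribosomal proteins, 1.185 for biogenesis and 1.176 for ribosome-associated genes. In the same order they are 1.090, 1.118 and 1.154 with normexp and quantile, and 0.760, 0.897 and 0.776 under cyclic loess. With median scaling and no scaling the ribosomal proteins stay highest (1.522 and 1.312).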

How the data were processed

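The deposited array files give a linear spot intensity that, per the file headers, is background-subtracted and spatially detrended and not scaled between arrays. The submitters' processing notes name Agilent Feature Extraction, version 9.5.1. The deposited series table held log2 values whose making is not given in the sources used here, and it served as an alternative only. From each log2 processed signal its array's 75th percentile was taken off, spots of a probe were averaged, and 76 probes with outlier marks on every spot of some array were left out. Of 41174 probes, 24844 were named through their RefSeq accession. The brightest probe stood for each gene, and a probe without a gene symbol kept the transcript name of the array. Of 32628 names the test covered 21661, those that stood well above background on 3 arrays or more. Of these 13428 were gene symbols, and the shares over all tested genes include the other names.

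The 5 groups of 3 arrays entered 1 fit of group means (limma 3.58.1, run under R 4.3.3), with 1 spread per gene (10 residual and 1.71 prior degrees of freedom), two-sided, with Benjamini-Hochberg adjustment at 0.05. Python 3.11.15 with numpy 2.4.6, pandas 2.3.3 and matplotlib 3.10.9 made the tables and plots. The fit was tested on simulated data. Array number limits the precision. The ribosomal protein genes and the lists were chosen with earlier results of these data known. Genes were named by rule: among called genes without overlap, 6 with the top and 6 with the bottom change for tumours against normal cerebella, 5 and 5 for the types and up to 3 and 3 elsewhere, genes of known role, paralogues with their partners, genes below background, and up to 3 of each other list. Some results that the rule selects are not reported here. The ratios of paralogue pairs were added after the values had been seen. Alternatives changed the scaling, background correction, filter, probe choice, input table, slide term and samples. Coordinates are given only for sequences, since array and table rest on different builds.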

Additional observations from a re-analysis of the deposited data

Results flagged for a closer look

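In groups of 6 tumours, 64 sets of values were searched for an array that stood apart by Dixon's criterion, which chance meets in about 1 in 20 sets, and 2 were found. Rpl39, an X-linked large subunit gene, had a log2 signal of 5.505 in MB7, while the other R-type tumours lay between 5.84 and 6.02. Without MB7 the difference between R-type and S-type tumours for Rpl39 was 0.45 (adjusted p = 0.00261, limma), beside 0.38 (adjusted p = 0.00817) with all arrays. Rps27a was at 5.583 in the same tumour, MB7, where the other R-type tumours lay between 5.83 and 5.96, and its difference between the types was 0.26 without MB7 (adjusted p = 0.0528, limma) and 0.20 with it (adjusted p = 0.11).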

How the results depend on the processing

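No paired analysis was possible because the replicate numbers only name single samples: normal cerebella and unirradiated S-type tumours share numbers but no stated source, and the tumour groups share none. Between tumours and normal cerebella the median change of the ribosomal protein genes was 1.090 with normexp on median signals and quantile normalization, 1.095 with quantile normalization, 0.760 with cyclic loess and 1.312 with no scaling. The count lower was 1 with the filter for signal on all 15 arrays, since Rpl3l was then not tested, and 1 to 2 with an array left out. Between the types, with normexp and quantile, quantile, cyclic loess and no scaling, 24, 26, 32 and 2 genes were higher, the medians were 0.092, 0.094, 0.158 and 0.065, and 2 genes were lower with no scaling. At 0.2 Gy those 4 settings gave medians of 0.078, 0.075, 0.121 and 0.000, and with no scaling the median of all tested genes was -0.23. The count higher at 0.2 Gy was 0 with median scaling, no scaling (2 lower, against 2515 of the 21661 tested genes), no filter, the slide as a term or only the groups compared. It was 2 with the mean of all probes (1.85% of all genes tested there), 11 with the filter on all 15 arrays (2.86%) and 0 to 15 with an array left out (3.08% where it was 15). Under cyclic loess Rplp1 was called lower in tumours than in normal tissue (-0.317, adjusted p = 0.00185, limma). Rpl38 (-0.080), Rps12 (-0.057) and Rps27a (-0.073) changed sign there but did not pass. Between the types Rplp0 changed sign to -0.015 and -0.016 with normexp and quantile and with quantile normalization. Rps27 changed to -0.004 with normexp and quantile. These 2 genes did not pass in those settings (adjusted p of 0.84 or more, limma). The causes were not tested, apart from the smaller number of arrays or genes that a setting itself brings. The counts and medians otherwise stayed within 1.5 times or within 0.101, the spread between arrays of a group. The brightest unsaturated probe is the same probe as in the main setting, because no probe was saturated.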
